A study of Mus musculus with 16 samples.

Results

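The genes described here are 42 type I interferon-stimulated genes, measured by RNA-seq in mouse skeletal muscle. They were chosen by symbol from a list of well-known targets of interferon. The rule itself uses no measured value, but the list was written with earlier results of these data known. All 42 were found in the table of 55487 genes, each in 1 row. After a filter on low counts 40 of them were among the 17490 genes tested, and Oas3 and Oas1g were not.

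The muscles came from wild-type (WT) mice and from mice that the labels call CHCHD4 Tg (here Tg), each left without exercise or given treadmill training. This gave 4 groups of 4 libraries, named here WT untrained, WT trained, Tg untrained and Tg trained. CHCHD4 sits between the mitochondrial membranes, where it forms disulphide bonds in proteins as they are imported. No other allele or agent is named for any group, and the labels give neither the muscle, the strain, the age of the mice nor the promoter of the transgene. Nothing says that each library stands for its own animal, so the p-values reflect the spread of these libraries, which may be technical.

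Type I interferons are secreted when cells sense foreign or misplaced nucleic acid. They bind the receptor pair Ifnar1 and Ifnar2, whose kinases Jak1 and Tyk2 phosphorylate transcription factors, Stat2 among them. With Irf9, Stat2 takes part in a complex that binds the interferon-stimulated response element (ISRE) in the promoters of genes that block viral replication, tag proteins with Isg15, sense RNA and restrain the response itself. A low basal expression of many of these genes is usual in healthy tissue, skeletal muscle included.

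The ISRE is the element that this complex binds, and so stretches of promoter that hold its core are shown first. RefSeq windows on GRCm38.p6, from 250 bases before to 50 bases after a start site, were matched to 33 of the 42 genes. The core searched was GAAANNGAAA on either strand, which reads as runs of TTTC when it lies on the opposite strand of the gene. It was present in 17 of the 33 genes (51.5%) and in 3.99% of all 27025 genes with a window. Within the bases before the start site the shares were 14 of 33 (42.4%) and 3.46%. The gamma-activated site TTCNNNGAA was present in 8 of the 33 (24.2%) and in 9.55% of all genes. A match is a description of letters and not a measured binding site. The stretches below read 5′ to 3′ on the strand of the gene, with 15 bases on either side, ending at the start site where that comes first, and the core in capitals. They are shown because they belong to Isg15 with its run of cores, to families with near-identical members, and to members whose values are given further on.
Isg15, chr4:156200860-156200911 (- strand): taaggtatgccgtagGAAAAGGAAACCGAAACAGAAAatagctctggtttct
Ifit1, chr19:34640770-34640828 (+ strand): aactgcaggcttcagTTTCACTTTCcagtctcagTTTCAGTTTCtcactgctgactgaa
Ifit3, chr19:34583358-34583431 (+ strand): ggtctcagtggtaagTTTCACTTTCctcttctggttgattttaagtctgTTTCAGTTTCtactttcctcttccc
Ifit3b, chr19:34607754-34607827 (+ strand): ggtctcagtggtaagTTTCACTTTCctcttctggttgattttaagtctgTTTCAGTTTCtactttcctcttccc
Oas1a, chr5:120907526-120907560 (- strand): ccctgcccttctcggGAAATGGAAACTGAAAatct
Oas1g, chr5:120887614-120887646 (- strand): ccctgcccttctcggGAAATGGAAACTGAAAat
Bst2, chr8:71537572-71537617 (- strand): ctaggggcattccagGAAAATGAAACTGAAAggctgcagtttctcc
Rsad2, chr12:26456548-26456587 (- strand): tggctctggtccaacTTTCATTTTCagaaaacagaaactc
Stat2, chr10:128270261-128270300 (+ strand): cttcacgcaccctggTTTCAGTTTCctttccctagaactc
Gbp2, chr3:142620589-142620628 (+ strand): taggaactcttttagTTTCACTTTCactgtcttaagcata
Gbp3, chr3:142559984-142560029 (+ strand): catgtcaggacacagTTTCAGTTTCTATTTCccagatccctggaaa
Gbp7, chr3:142530268-142530307 (+ strand): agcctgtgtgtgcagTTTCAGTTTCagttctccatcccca
Overlapping cores ran together in Isg15, which held 3 of them, and in Gbp3, Bst2, Oas1a and Oas1g, which held 2 each. The stretches of Ifit3 and Ifit3b were the same letter for letter over 74 bases, and those of Oas1a and Oas1g shared the core and its upstream flank. Lgals3bp and Irf7, described below, held no match in this window. Rtp4, Parp9, Mx2, Usp18, Ifi27, Dhx58, Mx1, Parp14 and Oas2 had no matched window, so no promoter stretch is shown for them.

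Library totals ranged from 40888325 to 61703724 counts, and the 42 genes together received 5060 to 8304 counts in a library. Levels are given as CPM (counts scaled to a common library size) after scaling by the trimmed mean of M values (TMM). One count was thus worth between 0.0175 and 0.0262 CPM, so genes below about 0.5 CPM rest on few counts. Chchd4 itself measured 6.88 to 8.98 CPM in the 8 WT libraries and 18.1 to 22.2 CPM in the 8 Tg libraries, with a log2 fold change of 1.39 (SE 0.06, adjusted p = 1.05e-09). Skeletal muscle markers such as Acta1, Ckm and Myh4 were high in every library, with 12 markers summing to 130153 to 198616 CPM. Alb, a liver transcript, stood above 10 CPM in WT untrained library 2, WT trained library 4 and Tg untrained library 2, at 14.9, 35.6 and 15 CPM, and was at most 0.236 CPM in the others.

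All 42 genes were detected, at low levels. Per kb of exon, over the 16 libraries, the highest was Ifi27 at 4.69 ± 0.331 CPM per kb (SD), followed by Ifi35 at 2.60 ± 0.302, Bst2 at 2.25 ± 0.473 and Lgals3bp at 2.19 ± 0.303. The SDs of Ifi35, Bst2 and Lgals3bp overlapped, whereas Ifi27 stood apart from Ifi35. The lowest were Oas3 at 0.0146 ± 0.0127, Mx1 at 0.0464 ± 0.0396 and Oas1g at 0.0506 ± 0.0412 CPM per kb, which overlapped.

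**Figure D1:**
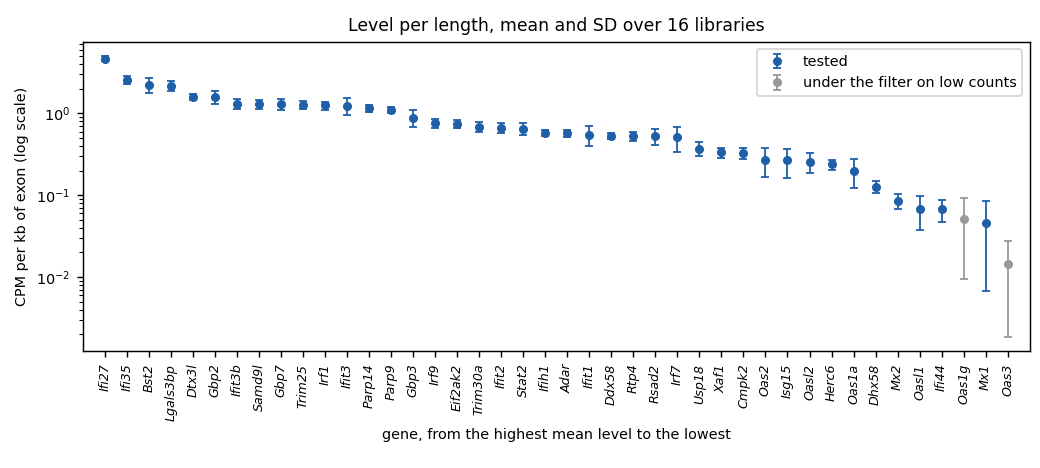
Level of each of the 42 genes per kb of exon, on a log axis, as the mean (points) and SD (bars) over the 16 libraries. Ifi27 leads at 4.69 CPM per kb, the 2 grey genes did not pass the filter on low counts, and the bars are widest relative to the mean for Mx1, Oas1g and Oas3.

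The transcription factors were all detected. Irf1, which activates genes of antigen presentation, ranged over the 16 libraries from 3.85 to 5.85 CPM, and Irf9, the DNA-binding part of the interferon complex, from 3.42 to 5.41 CPM. Stat2, its partner, ranged from 2.88 to 5.28 CPM. Irf7, the factor that amplifies transcription of the interferon genes, ranged from 1.25 to 3.95 CPM and was the most variable of the 4, with a coefficient of variation of 34.6% against 11.5% for Irf1.

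Active enzymes of the OAS family make short linked adenylates on double-stranded RNA, which activate the nuclease RNase L. Oas2 ranged from 0.641 to 2.25 CPM, Oasl2 from 0.754 to 2.99 CPM, Oas1a from 0.140 to 0.640 CPM and Oasl1, which restrains translation of Irf7, from 0.0614 to 0.314 CPM. Oas3 received 1 to 13 counts and Oas1g 0 to 15 counts in a library, and neither was tested. Of the transcribed 50-base stretches of Oas1a, 57.6% also occur in Oas1g, so the division of reads between them is uncertain, while Oas2 shares none with another gene.

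In the IFIT family, whose proteins bind foreign RNA, Ifit1 ranged from 1.01 to 2.28 CPM, Ifit2 from 2.10 to 3.35, Ifit3 from 1.5 to 3.31 and Ifit3b from 1.99 to 3.24 CPM. Ifit3 and Ifit3b share 51.2% and 44.5% of their 50-base stretches with each other, so their separate values are uncertain. The guanylate-binding proteins, GTPases that coat vacuoles holding microbes, ranged from 2.81 to 5.41 CPM for Gbp2, 1.58 to 4.61 for Gbp3 and 5.45 to 9.28 for Gbp7.

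Among the other antiviral effectors, the GTPase Mx1 ranged from 0.0232 to 0.629 CPM and Mx2 from 0.213 to 0.474 CPM. Rsad2 (viperin), an enzyme that makes a chain-terminating nucleotide, ranged from 1.29 to 2.95 CPM, and Cmpk2, a mitochondrial nucleotide kinase, from 1.03 to 1.71 CPM. Eif2ak2 (PKR), which halts translation on double-stranded RNA, ranged from 3.29 to 4.53 CPM, and Adar, which edits such RNA, from 4.01 to 5.47 CPM. Bst2 (tetherin), which holds budding virus at the membrane, ranged from 1.35 to 2.79 CPM and Samd9l, a restraint on translation, from 5.44 to 8.85 CPM. Adar shares 16.8% of its exon bases with Chrnb2 on the opposite strand, and the counting is not stated to use strand.

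The RNA sensors ranged from 3.25 to 4.59 CPM for Ddx58 (RIG-I), 4.23 to 5.50 for Ifih1 (MDA5) and 0.301 to 0.520 for Dhx58 (LGP2), and Trim25, a ubiquitin ligase that acts on RIG-I, from 6.21 to 8.64 CPM. Isg15, the ubiquitin-like tag, ranged from 0.107 to 0.340 CPM, Usp18, which removes it and dampens the receptor, from 0.768 to 1.41, and Herc6, the ligase that attaches it in mice, from 1.65 to 2.65 CPM. The ADP-ribosylation genes Parp9, Parp14 and Dtx3l, the last a ubiquitin ligase that works with Parp9, ranged from 4.69 to 6.18, 9.45 to 12.9 and 8.0 to 10.6 CPM. Parp9 and Dtx3l overlap on opposite strands over 458 exon bases.

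The remaining genes had varied roles. Ifi27, a membrane protein, ranged from 6.15 to 7.53 CPM, Ifi35 from 3.57 to 5.28, Ifi44 from 0.236 to 0.666 and Rtp4, a chaperone of receptors, from 0.835 to 1.43 CPM. Xaf1, an antagonist of the apoptosis inhibitor Xiap, ranged from 1.16 to 2.06 CPM, Trim30a, which dampens Toll-like receptor signalling, from 2.10 to 3.64 and Lgals3bp, a secreted glycoprotein that binds galectin-3, from 4.97 to 8.30 CPM. Over the 16 libraries the coefficient of variation was lowest for Ifi27 (7.05%) and Parp9 (7.71%) and highest for Mx1 (85.3%), Oasl1 (44.8%), Oas1a (39.4%), Isg15 (38.9%), Oas2 (38.9%) and Irf7 (34.6%).

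To ask how these genes differed by genotype, Tg was compared with WT averaged over both training states, and 2 of the 40 tested genes, Oas2 and Lgals3bp, fell. Of all 17490 genes, 1.12% were called in this comparison (adjusted p under 0.05 in edgeR's quasi-likelihood test with Benjamini-Hochberg adjustment over all tested genes). At an unadjusted p under 0.05 there were 11 of the 40, all lower in Tg, against 17.2% of all genes. The median log2 fold change of the 40 was -0.07, with 25 of 40 negative, and over all tested genes the median was -0.00062 with 50.2% negative. With each library left out in turn, the median of the 40 ranged from -0.11 to -0.02, highest without WT trained library 1.

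Oas2 lies at chr5:120730333-120749853 (GRCm38, minus strand). Its level was 1.02, 1.40, 1.04 and 1.53 CPM in the WT untrained and 1.54, 1.20, 2.25 and 2.16 CPM in the WT trained libraries, next to 0.863, 1.15, 1.04 and 0.951 CPM without and 0.751, 0.895, 0.846 and 0.641 CPM with training in Tg. All 4 Tg trained libraries lay below all 4 WT trained ones, while the untrained groups overlapped. The mean was 1.79 ± 0.503 CPM in WT trained and 0.783 ± 0.112 in Tg trained (SD, n = 4 each). Averaged over training the log2 fold change was -0.75 (SE 0.14, adjusted p = 0.0219), or 0.593 times the WT level. Among untrained libraries alone it was -0.33 (SE 0.20, adjusted p = 0.459).

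Lgals3bp lies at chr11:118392751-118402092 (GRCm38, minus strand). Its level was 5.71, 7.25, 6.04 and 6.16 CPM in the WT untrained and 7.07, 6.85, 8.30 and 7.08 CPM in the WT trained libraries, next to 6.16, 6.08, 5.76 and 5.52 CPM without and 5.78, 5.32, 5.65 and 4.97 CPM with training in Tg. Here too the trained groups did not overlap, and the untrained ones did. Its log2 fold change averaged over training was -0.27 (SE 0.06, adjusted p = 0.0459), or 0.832 times the WT level. Among untrained libraries alone it was -0.10 (SE 0.09, adjusted p = 0.613). In leave-one-out fits Oas2 was called in 14 of 16, but not without WT trained library 3 (adjusted p = 0.0507) or Tg trained library 4 (adjusted p = 0.0560), and Lgals3bp in 4 of 16 (adjusted p from 0.0364 to 0.107). Lgals3bp was also not called with a replicate block (adjusted p = 0.0649) or without the filter on low counts (adjusted p = 0.0588), where Oas2 was called. Without the 3 libraries over 10 CPM of Alb, an alternative chosen after seeing the data, Oas2 was called (adjusted p = 0.04996) and Lgals3bp was not (adjusted p = 0.0681).

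The next 3 genes by p in this average were Ifi35, Oas1a and Bst2, and none passed the test. Ifi35 measured 4.34, 5.28, 5.09 and 4.91 CPM in the WT untrained and 5.0, 5.14, 4.53 and 4.56 CPM in the WT trained libraries, next to 3.57, 3.79, 4.34 and 4.06 CPM without and 4.85, 4.12, 4.35 and 3.88 CPM with training in Tg. It was lower in most Tg libraries than in most WT ones, with overlap in both training states, and its log2 fold change was -0.24 (SE 0.06, adjusted p = 0.0780). Part of Ifi35, 16.8% of its exon bases, overlaps Gm11626 on the opposite strand.

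Oas1a, whose promoter with its double core is shown above, measured 0.459, 0.640, 0.401 and 0.443 CPM in the WT untrained and 0.353, 0.371, 0.550 and 0.583 CPM in the WT trained libraries, next to 0.261, 0.491, 0.272 and 0.348 CPM without and 0.193, 0.140, 0.374 and 0.155 CPM with training in Tg. Tg trained libraries 1, 2 and 4 lay below every other group's lowest value, and Tg trained library 3 lay among the WT trained ones. The log2 fold change averaged over training was -0.80 (SE 0.22, adjusted p = 0.0806). Bst2 measured 2.60, 1.97, 1.93 and 2.28 CPM in the WT untrained and 2.79, 1.85, 2.51 and 2.48 CPM in the WT trained libraries, next to 2.05, 1.39, 1.82 and 1.92 CPM without and 2.25, 1.35, 1.75 and 1.53 CPM with training in Tg. The groups overlapped, and the log2 fold change was -0.39 (SE 0.12, adjusted p = 0.118).

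**Figure D2:**
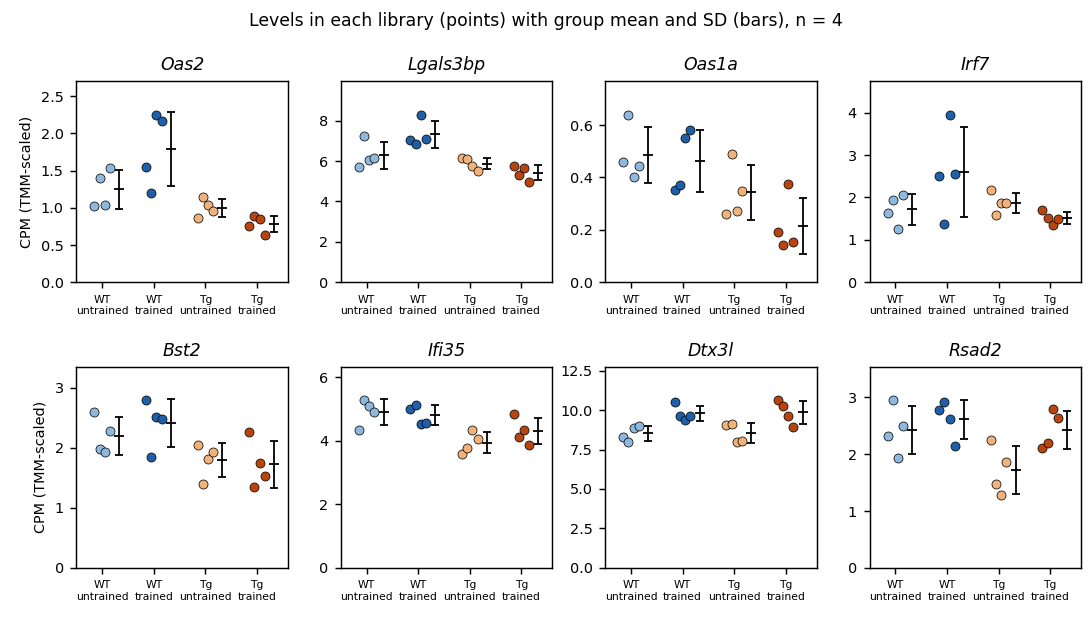
CPM of 8 of the genes in each library (points), with the mean and SD of each group of 4 beside them. For Oas2 and Lgals3bp the Tg trained points all lie below the WT trained ones; for Dtx3l the WT trained points all lie above the WT untrained ones.

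Macrophage and monocyte markers had lower values in the same contrasts, and none was called after adjustment. All 17 tested markers of 18 had negative log2 fold changes for Tg against WT averaged over training (median -0.69, 0 called, lowest adjusted p = 0.0550 for Itgam). An unadjusted p under 0.05 was found for 13 of the 17, against 17.2% of all genes. Among trained libraries alone all 17 were negative as well (median -0.97, 0 called). There too 13 of the 17 had an unadjusted p under 0.05, against 7.98% of all genes. Among untrained libraries alone 16 of the 17 were negative (median -0.36, 0 called), where the median of the 40 genes was 0.00. For training in Tg 16 of the 17 were negative (median -0.56, 0 called), where the median of the 40 was -0.03. For training in WT 10 of the 17 were negative (median -0.06, 0 called), where the median of the 40 was 0.10. The summed level of the 18 markers was 59.2 to 98.3 CPM without and 37.1 to 117 CPM with training in WT, and 38.0 to 70.6 CPM without and 33.5 to 46.8 CPM with training in Tg, and none of the 18 was at 0 in all libraries. The 3 libraries over 10 CPM of Alb also had high sums of these markers. WT trained library 4 ranked 1, WT untrained library 2 ranked 2 and Tg untrained library 2 ranked 4 of 16. No Tg trained library stood above 10 CPM of Alb. What the Alb libraries contributed to the marker values was not tested. The part of these markers in the lower Oas2 and Lgals3bp was not tested. In bulk muscle, fewer cells of a type and less RNA per cell cannot be told apart. By contrast 10 of 10 endothelial markers were positive for Tg averaged over training (median 0.20, 0 called, 8 with unadjusted p under 0.05). Of 10 fibroblast markers 8 were negative in that average (median -0.07, 0 called, 4 with unadjusted p under 0.05, lowest adjusted p = 0.0587 for Ly6a), as were 5 of 7 tested adipocyte markers (median -0.30, 0 called). Of 12 skeletal muscle markers 7 were negative (median -0.06), and 1 was called, the fast myosin gene Myh2, which was higher in Tg (1.39, SE 0.25, adjusted p = 0.0203). The part of these lists in the values of the 40 genes was not tested. T and NK cell markers summed to at most 1.22 CPM and neutrophil markers to at most 3.35 CPM in any library.

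Among trained libraries alone 0 of the 40 genes were called for Tg against WT, and of all genes 0.0114% (2) were. Before adjustment 6 of the 40, all lower in Tg, had p under 0.05, against 7.98% of all genes. The trained groups did not overlap for 2 of the 40, Oas2 and Lgals3bp, with Tg below WT, against 2.76% of all genes. For 0 of the 40 did Tg lie wholly above WT, against 2.94% of all genes. The median log2 fold change of the 40 was -0.12 and 30 of 40 were negative, against a median of -0.00302 and 50.9% negative over all genes. With each library left out in turn, the median of the 40 ranged from -0.19 to -0.06, highest without WT trained library 1.

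The largest trained differences by p were Oas2 with a log2 fold change of -1.18 (SE 0.20, adjusted p = 0.111) and Lgals3bp with -0.43 (SE 0.09, adjusted p = 0.250). Both were called in this comparison by DESeq2 (adjusted p = 0.000760 and 0.00968). By edgeR both were called without WT untrained library 2 (adjusted p = 0.0488 for each), and Oas2 without WT trained library 2 (adjusted p = 0.0264). Oas1a followed with -1.10 (SE 0.32, adjusted p = 0.377) and Bst2 with -0.49 (SE 0.17, adjusted p = 0.466).

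Irf7 was the fourth. Its level was 1.64, 1.94, 1.25 and 2.05 CPM in the WT untrained and 2.51, 1.37, 3.95 and 2.56 CPM in the WT trained libraries, next to 2.17, 1.58, 1.87 and 1.87 CPM without and 1.70, 1.51, 1.36 and 1.5 CPM with training in Tg. WT trained library 3 was the highest of all 16 and WT trained library 2 lay among the Tg trained libraries, so the trained groups overlapped. The log2 fold change between trained groups was -0.77 (SE 0.23, adjusted p = 0.382), and it was -0.51 without WT trained library 3. By role, all 7 of the genes with varied roles, all 3 guanylate-binding proteins and 3 of the 4 tested OAS genes had negative values in trained muscle, while Mx2 had the highest, 0.29.

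**Figure D3:**
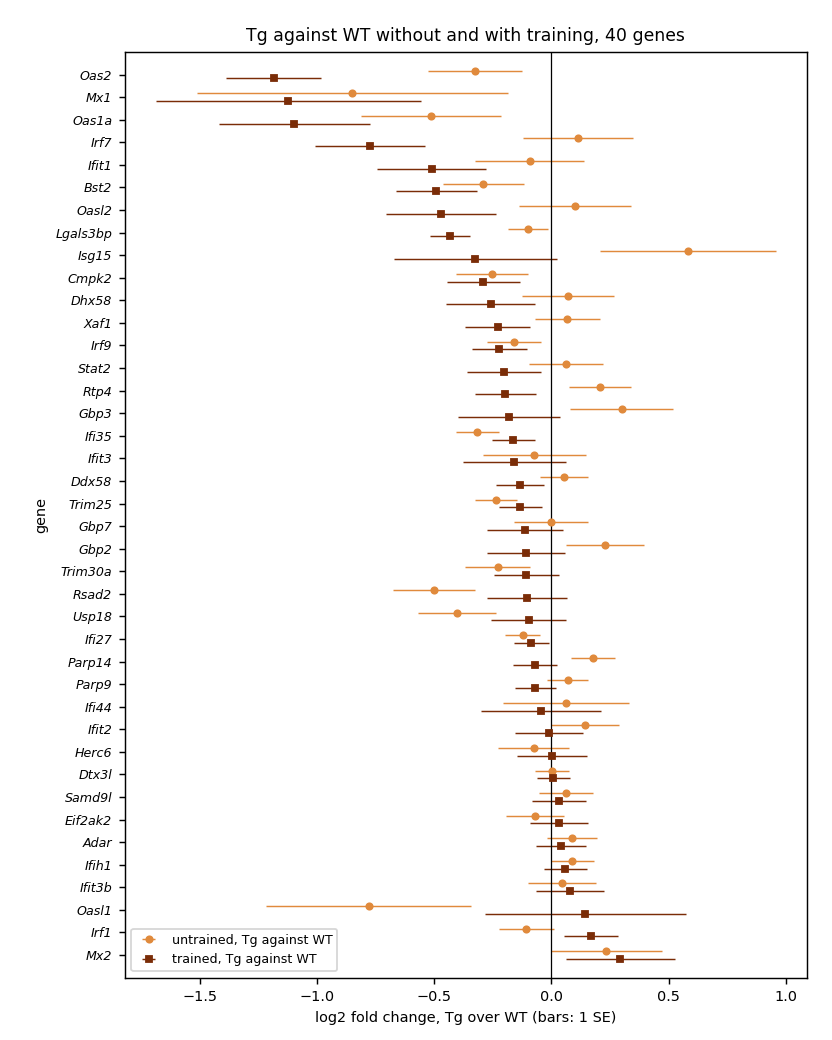
Log2 fold change of Tg over WT for the 40 tested genes (points, with bars of 1 SE), in untrained (circles) and trained (squares) muscle, sorted by the trained value. In trained muscle 30 of 40 values are negative, in untrained muscle 20 of 40.

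Without training, 0 of the 40 genes were called for Tg against WT, and of all genes 0.743% (130) were. Unadjusted p lay under 0.05 for 4 of the 40, all lower in Tg, against 16.2% of all genes. Their median was 0.00 with 20 of 40 negative, next to a median of 0.0042 over all genes. These 4 were Ifi35 with -0.32 (SE 0.09, adjusted p = 0.116), Rsad2 with -0.50 (SE 0.17, adjusted p = 0.184), Trim25 with -0.24 (SE 0.09, adjusted p = 0.223) and Usp18 with -0.40 (SE 0.17, adjusted p = 0.248). Parp14, next by p, had 0.18 (SE 0.09, adjusted p = 0.369). For Trim30a all Tg untrained libraries lay below all WT untrained ones (-0.23, SE 0.14, adjusted p = 0.438). The share of all genes that did so was not counted.

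Rsad2, whose single core lies -120 to -111 bases from the start, measured 2.32, 2.95, 1.93 and 2.50 CPM in the WT untrained and 2.77, 2.92, 2.62 and 2.14 CPM in the WT trained libraries, next to 2.25, 1.47, 1.29 and 1.87 CPM without and 2.10, 2.19, 2.79 and 2.64 CPM with training in Tg. Tg untrained libraries 2, 3 and 4 were the lowest of the 16. Usp18 measured 0.999, 1.08, 1.32 and 0.906 CPM in the WT untrained and 1.41, 1.37, 1.02 and 0.874 CPM in the WT trained libraries, next to 0.782, 0.922, 0.781 and 0.768 CPM without and 1.18, 1.02, 1.06 and 1.13 CPM with training in Tg. The Tg untrained libraries were lower than all 4 Tg trained ones and of the WT untrained libraries only library 4 lay below their highest value. How many of all genes showed no overlap between the Tg groups was not counted. Trim25 measured 7.17, 8.64, 8.58 and 7.79 CPM in the WT untrained and 6.55, 7.27, 8.17 and 8.39 CPM in the WT trained libraries, next to 6.34, 7.50, 6.21 and 7.30 CPM without and 6.61, 7.26, 7.16 and 6.64 CPM with training in Tg, with overlap between the untrained groups. The highest value of this comparison was 0.58 (SE 0.38) for Isg15, at 6 to 15 counts a library in the untrained groups.

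To ask how these genes differed after training, trained and untrained libraries were compared within each genotype. In WT 0 of the 40 were called, and of all genes 0.143% (25) were. At an unadjusted p under 0.05 there were 7 of the 40, all higher after training, against 9.55% of all genes. Their median log2 fold change was 0.10 with 12 of 40 negative, against 0.0054 and 48.7% negative over all genes.

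The 5 with the smallest p in WT were Dtx3l at 0.20 (SE 0.07, adjusted p = 0.416), Oas2 at 0.51 (SE 0.20, adjusted p = 0.433), Rtp4 at 0.34 (SE 0.13, adjusted p = 0.435), Lgals3bp at 0.22 (SE 0.08, adjusted p = 0.448) and Irf7 at 0.58 (SE 0.23, adjusted p = 0.458). Isg15 and Xaf1 were the other two under 0.05 before adjustment. Dtx3l measured 8.31, 8.0, 8.86 and 9.0 CPM in the WT untrained and 10.5, 9.63, 9.40 and 9.66 CPM in the WT trained libraries, next to 9.07, 9.13, 8.01 and 8.03 CPM without and 10.6, 10.2, 9.64 and 8.93 CPM with training in Tg. Every WT trained library lay above every WT untrained one, as was also so for Xaf1, and 3 of the 4 Tg trained libraries lay above all Tg untrained ones. The share of all genes without overlap between trained and untrained groups was not counted. Rtp4 measured 1.26, 0.835, 0.967 and 0.947 CPM in the WT untrained and 1.43, 1.11, 1.26 and 1.27 CPM in the WT trained libraries, next to 1.20, 1.13, 1.22 and 1.08 CPM without and 1.14, 1.05, 1.12 and 1.13 CPM with training in Tg. WT untrained library 1 lay among the trained libraries and the other three lay below them. Isg15 went from 0.140, 0.107, 0.189 and 0.121 CPM in WT untrained to 0.335, 0.208, 0.340 and 0.146 in WT trained, on 6 to 18 counts a library. Libraries 1 and 3 of WT trained accounted for the 2 highest values.

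In Tg 0 of the 40 were called after training, and of all genes 0% (0) were. Before adjustment 3 of the 40, all higher, had p under 0.05, against 11.1% of all genes. The 5 smallest p belonged to Rsad2 with 0.50 (SE 0.17, adjusted p = 0.305), Dtx3l with 0.20 (SE 0.07, adjusted p = 0.305), Usp18 with 0.43 (SE 0.16, adjusted p = 0.355), Oas1a with -0.67 (SE 0.33, adjusted p = 0.476) and Oas2 with -0.35 (SE 0.21, adjusted p = 0.579). The median of the 40 was -0.03, with 22 negative, and over all genes it was 0.0024.

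Averaged over genotype, 0 of the 40 were called for training, and of all genes 0.457% (80) were. At an unadjusted p under 0.05 there were 4 of the 40, all higher, against 14.4% of all genes. Dtx3l led with 0.20 (SE 0.05, adjusted p = 0.0908), and DESeq2 called it (adjusted p = 0.0303). Rsad2 (0.30, SE 0.12) and Usp18 (0.28, SE 0.12) followed with adjusted p of 0.277 and 0.286. Ifi44 measured 0.360, 0.391, 0.236 and 0.363 CPM in the WT untrained and 0.428, 0.648, 0.524 and 0.333 CPM in the WT trained libraries, next to 0.381, 0.348, 0.436 and 0.256 CPM without and 0.666, 0.386, 0.453 and 0.369 CPM with training in Tg, with a log2 fold change of 0.44 (SE 0.19, adjusted p = 0.291). Its highest values were Tg trained library 1 and WT trained library 2. Mx1 measured 0.180, 0.107, 0.141 and 0.201 CPM in the WT untrained and 0.242, 0.0232, 0.629 and 0.375 CPM in the WT trained libraries, next to 0.0602, 0.0410, 0.0908 and 0.146 CPM without and 0.215, 0.123, 0.177 and 0.0583 CPM with training in Tg, with 0.84 (SE 0.44, adjusted p = 0.397). WT trained library 2, at 1 count, was the lowest of the 16 for Mx1, and WT trained library 3, at 24 counts, the highest. Many laboratory mouse strains carry defective copies of Mx1. The median over the 40 was 0.08, with 11 negative, against 0.00153 over all genes.

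Markers of some other cell types had lower values in the same average. Of 7 tested adipocyte markers 5 fell with training (median of the 7 -1.95, all negative), with the smallest p for Lep, which encodes leptin (-2.87, SE 0.46, adjusted p = 0.0147). The 8 listed markers summed to 73.0 to 118 CPM in WT untrained and 86.8 to 128 CPM in Tg untrained libraries, next to 71.1 to 75.8 CPM and 61.6 to 76.5 CPM in the trained ones, so the WT ranges overlapped and the Tg ranges did not. All 10 fibroblast markers were negative (median -0.36, 0 called, 7 with unadjusted p under 0.05, lowest adjusted p = 0.0574 for Dcn). So were 14 of 17 macrophage markers (median -0.25, 0 called, 4 with unadjusted p under 0.05). Endothelial markers were positive in 10 of 10 (median 0.08, 0 called, 0 with unadjusted p under 0.05). Of all genes 0.457% were called in this average, and 14.4% had an unadjusted p under 0.05. The part of these markers in the training values of the 40 genes was not tested.

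The difference between the training responses of Tg and WT was tested directly as an interaction. Of the 40 genes 0 were called, and of all genes 0.0515% (9) were. Unadjusted p lay under 0.05 for 4 of the 40, all with a lower response in Tg, against 6.03% of all genes. They were Oas2 with a difference in log2 fold change of -0.86 (SE 0.29, adjusted p = 0.636), Lgals3bp with -0.33 (SE 0.12, adjusted p = 0.694), Irf7 with -0.89 (SE 0.33, adjusted p = 0.731) and Rtp4 with -0.40 (SE 0.19, adjusted p = 0.812). Parp14 came next with -0.25 (SE 0.13, adjusted p = 0.837), and its level was 10.6, 10.2, 9.45 and 9.75 CPM in the WT untrained and 12.7, 10.5, 11.6 and 10.2 CPM in the WT trained libraries, next to 12.4, 12.9, 9.72 and 10.4 CPM without and 11.8, 10.7, 10.4 and 9.98 CPM with training in Tg. The Parp14 groups overlapped throughout. The median difference over the 40 was -0.11 with 27 negative, next to -0.00868 and 51.5% negative over all genes. Without WT trained library 1 this median was -0.00070, and without WT untrained library 3 it was -0.02. Differences were positive for 13 genes and highest for Oasl1 at 0.92 (SE 0.61), on 3 to 17 counts a library.

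The library with the highest value differed between groups of these genes. WT trained libraries 1 and 3 were picked after seeing that many of these genes peaked there. The ratios below are therefore taken where the values were already known to be high. How often all tested genes were highest, lowest or above their mean in each library was not counted. WT trained library 1 held the highest value of the 16 for 11 of the 40 genes, namely Gbp2, Gbp3, Gbp7, Usp18, Rtp4, Stat2, Xaf1, Ifit2, Ifit3, Bst2 and Ifi27, and 37 of the 40 lay above their mean there. WT trained library 3 held it for 9, namely Mx1, Irf7, Oasl1, Oasl2, Oas2, Herc6, Lgals3bp, Ifit1 and Isg15, with 30 above their mean. In WT trained library 3 Mx1 stood at 4.44 times the median of the other 15 libraries, Irf7 at 2.33, Oasl1 at 2.31, Oas2 at 2.18 and Oasl2 at 1.97 times. In the same library Gbp2, Gbp3 and Gbp7 stood at 0.989, 0.957 and 0.901 times, whereas in WT trained library 1 they stood at 1.45, 1.60 and 1.3 times. Oas3 and Oas1g, too low to test, also had their highest CPM in WT trained library 3, at 13 and 15 counts.

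The remaining WT trained libraries were near the middle. The mean over the 40 genes of log2(CPM + 0.5), centred on each gene, was 0.21 in WT trained library 1, 0.16 in library 3, -0.0042 in library 2 and 0.0036 in library 4. WT untrained library 3 held the lowest value for 12 genes and had the lowest mean, -0.14. The rank of a library for the summed macrophage markers and for the mean of the 40 genes lay within 1 place in 7 of the 16 libraries and 5 or more places apart in 6. Among the WT trained libraries the markers were highest in library 4 (117 CPM), which ranked 8 of 16 for the mean of the 40 genes, and libraries 1 and 3 ranked 5 and 7 for the markers (66.4 and 61.3 CPM). The part of the markers in this order of libraries was not tested.

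**Figure D4:**
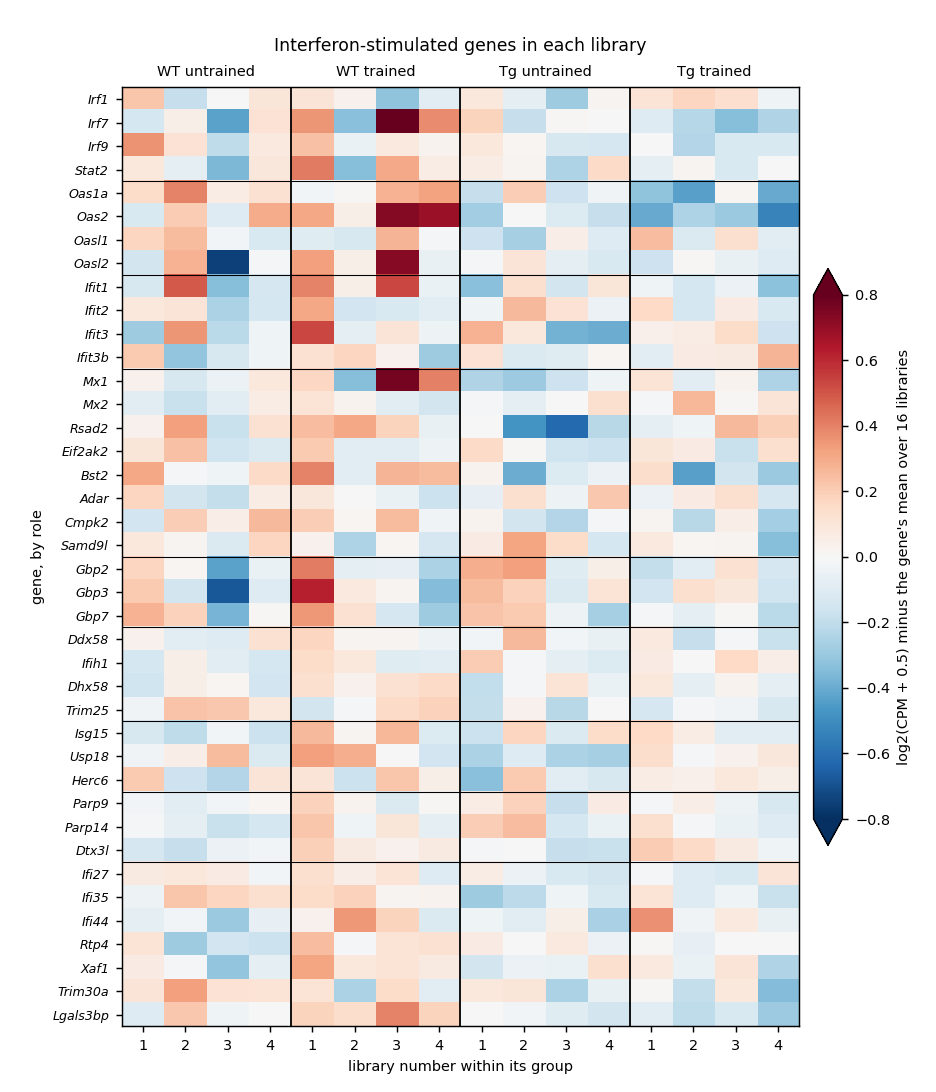
Each of the 40 tested genes (vertical axis, grouped by role) in each of the 16 libraries (horizontal axis), coloured by log2(CPM + 0.5) minus the mean of the gene over all libraries, with the scale ending at 0.8 on either side. WT trained library 3 is high for Irf7, Oas2, Oasl2 and Mx1, and WT trained library 1 for the 3 guanylate-binding proteins.

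**Figure D5:**
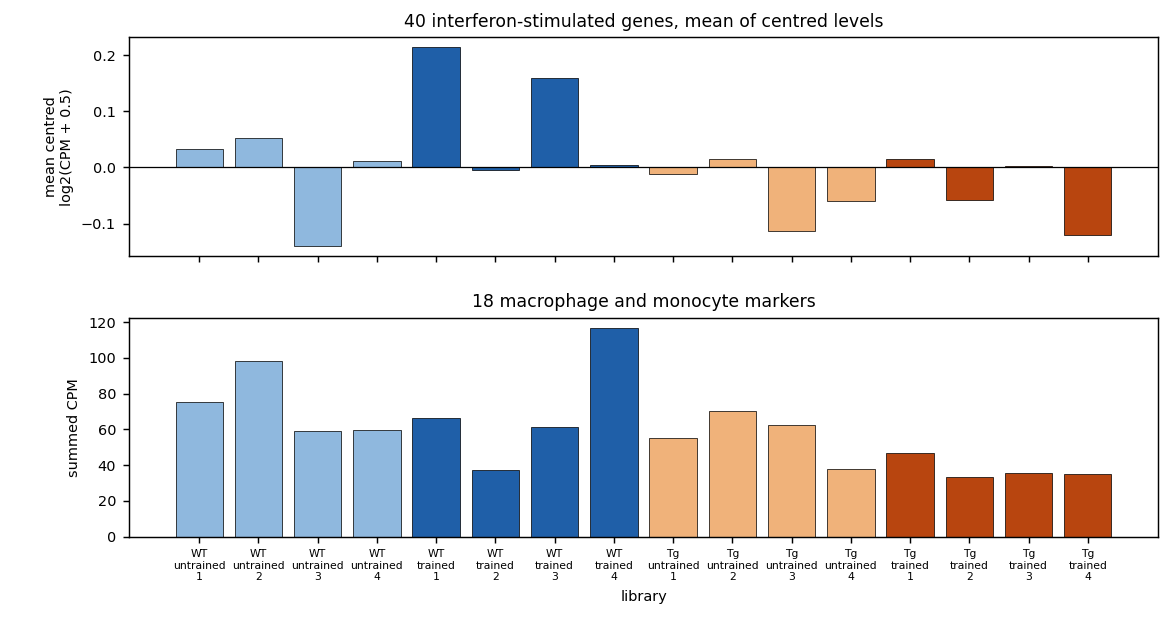
Mean centred level of the 40 genes (upper bars) and summed CPM of 18 macrophage and monocyte markers (lower bars) in each library, coloured by group. The upper bars peak in WT trained libraries 1 and 3, the lower ones in WT trained library 4.

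The genes were also read by whether the promoter window held the ISRE core. Between trained groups the median log2 fold change of Tg over WT was -0.13 for the 15 tested genes with a match, such as Oas1a and Bst2, -0.09 for the 16 without, such as Lgals3bp and Irf7, and -0.10 for the 9 not in the table, such as Oas2. For training in WT the 3 medians were 0.10, 0.04 and 0.17. These medians were not tested against each other.

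The other steps of the pathway were read from lists of genes around these. Of 21 interferon genes in the table, 17 had 0 counts in all 16 libraries, Ifnb1 among them, and none was tested. A count of 0 in a library allows up to 3 counts, which is 0.0526 to 0.0786 CPM here, for counting error only. Those detected were Ifnk with 17 counts over all libraries, Ifnz with 11, Ifng with 5 and Ifna7 with 1.

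Receptor and kinase genes were present and 0 of 10 tested were called in any of the 7 contrasts. Ifnar1 measured 8.64 ± 0.71 CPM in WT untrained and 8.39 ± 1.05 in Tg trained (SD, n = 4 each), and Ifnar2 2.27 ± 0.32 and 2.50 ± 0.16. The smallest p for Tg averaged over training belonged to Tyk2 (-0.13, SE 0.05, adjusted p = 0.181) and Ifngr1 (-0.17, SE 0.07, adjusted p = 0.190).

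Of 22 tested sensors, adaptors and kinases upstream of interferon, 0 were called in any contrast. Cgas, which senses DNA in the cytosol, measured 0.35 ± 0.10, 0.35 ± 0.08, 0.41 ± 0.10 and 0.27 ± 0.08 CPM in the 4 groups in the order above, and Sting1, its adaptor, 1.20 ± 0.26, 1.10 ± 0.26, 1.29 ± 0.24 and 1.19 ± 0.23 CPM. Triap1, an intermembrane space protein of mitochondrial lipid transfer, measured 4.41 ± 0.23, 4.35 ± 0.43, 4.01 ± 0.27 and 4.14 ± 0.22 CPM. For Tg averaged over training Tlr8, an RNA sensor of endosomes in myeloid cells, had -1.26 (SE 0.37, adjusted p = 0.0958) and Tbk1, the kinase of Irf3, -0.16 (SE 0.05, adjusted p = 0.119).

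Of 19 tested brakes on the pathway 0 were called. Samhd1, which degrades deoxynucleotides, came nearest with -0.22 (SE 0.05, adjusted p = 0.0501) for Tg averaged over training, and Socs1, an inhibitor of Jak kinases, had 0.98 (SE 0.23, adjusted p = 0.0526).

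Among 53 other tested interferon-stimulated genes, 3 fell in Tg averaged over training and 0 rose, where 1.12% of all genes were called. These were Ifi204 with a log2 fold change of -0.99 (SE 0.16, adjusted p = 0.0142) and Ifi205 with -1.09 (SE 0.19, adjusted p = 0.0203), both of the family of DNA-binding Ifi200 proteins, and Slfn8 with -0.81 (SE 0.17, adjusted p = 0.0317). No gene of this list was called in the other 6 contrasts. For the difference of training responses 45 of the 53 were negative (median -0.16, 0 called), next to 51.5% negative over all genes, and Helz2 had the smallest p at -0.54 (SE 0.17, adjusted p = 0.619). Of 28 tested GTPases, chemokines and antigen-processing genes induced by interferon gamma, 0 were called in any contrast, and 24 of 28 were negative for that difference (median -0.26). The difference of training responses was negative in 16 of 17 macrophage markers as well (median -0.66, 0 called), and their part in these values was not tested.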

How the data were processed

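RNA-seq of skeletal muscle was deposited as 1 table for 16 libraries. STAR 2.7.8a, RSEM 1.3.2 and mm10 are named in the submitters' processing notes, and the deposited values are RSEM expected counts per gene, not normalized, of which 12.48% were not whole. Which gene annotation was used is not stated. Expected counts were rounded to whole numbers. Per the labels' protocols, RNA was purified on columns and libraries were made with an mRNA-seq kit, whose strandedness is not stated. RSEM divides reads among genes with shared sequence, so near-identical copies are uncertain.

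Genes were filtered with filterByExpr by group (17490 kept) and scaled by TMM (factors 0.924 to 1.28). One edgeR 4.0.16 quasi-likelihood model with 4 group means was fitted to all 16 libraries (R 4.3.3), 7 contrasts were tested, p-values were adjusted by Benjamini-Hochberg over all tested genes within each contrast, and genes were called at 0.05. The biological coefficient of variation was 14.1%. SE is the log2 fold change divided by the square root of the F statistic. The procedure was tested on data simulated from the fitted spread, with planted changes larger than those of Oas2 and Lgals3bp averaged over training. Smaller changes, and changes in genes at low levels, were not tried. Replicates differed by more than counting noise (lowest chi-square per degree of freedom 7.31). Exon lengths, positions and shared 50-base stretches came from GENCODE on GRCm38, and promoters from RefSeq.

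Every one of the 42 genes is named with its range, and values in every library are given for those called and for the 5 with the smallest p in each contrast. Lists around them are given by counts, with up to 3 called genes or the 2 with the smallest p. The values of some genes outside the 42 are not reported here. The genes and lists were chosen with earlier results of these data known. Alternatives were DESeq2 1.42.0, limma-voom 3.58.1, relative log expression (RLE) size factors, no low-count filter, at least 1 CPM in 4 libraries, a replicate block, the 8 libraries compared, each library left out, and, added after seeing the data, omission of the 3 libraries over 10 CPM of Alb.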

Additional observations from a re-analysis of the deposited data

Results flagged for a closer look

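Of 160 sets of 4 libraries (each of the 40 tested genes in each group), 7 held a library that lay far from the other 3 by Dixon's criterion, and chance gives about 1 in 20. All 7 were high values, and 3 came from WT trained library 1. There Eif2ak2 measured 4.45 CPM against 3.51 to 3.66 in the others of the group, Xaf1 2.06 against 1.66 to 1.73, and Ifit2 3.35 against 2.29 to 2.41. Lgals3bp measured 8.30 CPM in WT trained library 3 against 6.85 to 7.08. In Tg untrained library 2 Usp18 measured 0.922 CPM against 0.768 to 0.782, and Ddx58 4.59 against 3.58 to 3.69. Trim30a measured 3.64 CPM in WT untrained library 2 against 3.06 to 3.09. Alb was 15 CPM in Tg untrained library 2 and 14.9 CPM in WT untrained library 2, and its part in these values was not tested.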

How the results depend on the processing

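Depth limits the lowest genes (Oas3, Oas1g, Mx1, Isg15, Oasl1), at 24 or fewer counts in a library, and counts of called genes moved with the settings while the fold changes of the called genes and the 5 with the smallest p in each contrast kept their direction under every alternative run. Among all 40, RLE size factors changed the sign of 1 gene for Tg against WT untrained and of 0 in the other 6 contrasts. Without the filter on low counts, 5 genes were called for training in Tg, 1 for Tg against WT trained and 15 for the difference of training responses, and 1 of the 42 interferon-stimulated genes, Oas2, for Tg averaged over training. With a filter of 1 CPM in 4 libraries, 1 gene was called for Tg against WT trained. DESeq2 called 68 genes for training in WT, 126 for training in Tg, 442 for Tg against WT untrained, 54 for Tg against WT trained, 35 for the difference, 367 for training averaged over genotype and 639 for Tg averaged over training. Of the interferon-stimulated genes it called 2 for Tg against WT trained (Oas2, Lgals3bp), 1 for training averaged over genotype (Dtx3l) and 4 for Tg averaged over training (Ifi35 and Oas1a besides those 2). Fits to the 8 libraries compared called 10, 123, 40 and 5 genes for the 4 pairwise contrasts in the order above. Without the 3 libraries over 10 CPM of Alb, 42, 104 and 584 genes were called for training in WT, in Tg and averaged over genotype, and 1 interferon-stimulated gene, Oas2, for Tg averaged over training. The cause of these shifts was not tested. RLE size factors and limma-voom left every count of interferon-stimulated genes as it was.

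The labels do not say whether libraries with the same number share anything else. Of 24 pairs with the same number 6 correlated above 0.1 (range -0.153 to 0.176), and 7 of 16 libraries correlated best with their own number. The median correlation was 0.0016 for pairs with the same number and 0.0065 for pairs with different numbers. With a replicate block, 66 genes were called for Tg against WT untrained, 1 for Tg against WT trained and 16 for training averaged over genotype. For Tg averaged over training Oas2 was called (adjusted p = 0.0394), as was Bst2 (adjusted p = 0.0405), and Lgals3bp was not (adjusted p = 0.0649).

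With each library left out in turn, the genes called ranged from 16 to 30 for training in WT, 0 to 93 for training in Tg, 43 to 138 for Tg against WT untrained, 1 to 16 for Tg against WT trained, 6 to 12 for the difference, 15 to 389 for training averaged over genotype and 29 to 374 for Tg averaged over training. The interferon-stimulated genes called ranged from 0 to 2 for Tg against WT trained and 0 to 2 for Tg averaged over training, with 0 without WT trained library 3 or Tg trained library 4. Oas1a was called there without Tg trained library 3 (adjusted p = 0.0475). Their median log2 fold change ranged from 0.042 to 0.187 for training in WT, highest without WT trained library 4, from -0.111 to 0.033 for Tg against WT untrained, lowest without WT untrained library 3, and from -0.162 to -0.00070 for the difference.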
